A study of Mus musculus with 4 samples.

Results

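CatSper is the calcium channel of the sperm tail, and the set described here holds the genes of its pore and of its auxiliary subunits. The 9 members are Catsper1, Catsper2, Catsper3 and Catsper4, whose products line the pore, and Catsperb, Catsperd, Catsperg1, Catsperg2 and Catsperz, whose products are auxiliary. They were chosen by name and not by a rule on measured values, although earlier results of these data were known. All 9 names were found among the 32285 genes of the count tables.

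Calcium that enters through CatSper changes the beat of the sperm tail to the vigorous whip, called hyperactivation, with which sperm swim through the oviduct and reach the egg. The pore subunits each supply a part of a single channel, so that a functional pore needs all of them, and the auxiliary subunits form a canopy over the pore outside the cell or bind it from inside. The genes are known for transcription late in spermatogenesis, in spermatocytes that have reached pachytene and in haploid spermatids, long before the tail in which the protein works is complete.

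The study grew testicular organoids (TOs), which are dissociated cells of neonatal ICR mouse testes that reassemble in Matrigel and are then kept at an air-liquid interface, and set them beside testes. Single-cell RNA-seq was performed on unsorted cells of 28-day-old TOs and of 28-day-old mouse testes, with 2 libraries in each group. The protocol in the labels gives day 21 for the dissociation of TOs, whereas the design and the methods give day 28. No genetic change separates the groups. The TO medium of the study held serum replacement, testosterone, follicle-stimulating hormone and antioxidants, whereas the testes were not cultured. Effects of these additions cannot be told apart from those of the organoid culture. The labels do not give the number of animals or organoids in a library. By the study's methods the TOs came from separate batches and the testis libraries are biological replicates, and p-values measure the spread between these libraries.

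The libraries held 11826 to 14643 cell barcodes and 74988295 to 119966959 unique molecular identifiers (UMIs, each standing for 1 captured transcript), and 8713 to 9867 cells per library were kept. The median kept cell held 5479.5 and 7561 UMIs in the TO libraries and 2549 and 3271 UMIs in the testis libraries, and mitochondrial transcripts made up a median of 3.37% and 3.38% against 1.18% and 0.810%. Pairs of libraries shared 28 to 44 barcodes. Germ cells numbered 939 and 692 in the TO libraries and 7044 and 7775 in the testis libraries. Levels are given as CPM, the UMIs of a gene per 1000000 UMIs summed over the cells of 1 stage in 1 library, and TO libraries are always named before testis libraries.

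Stage names stand for clusters that carried the most markers of that stage, and each should be read as "like" the stage. TO 1 and TO 2 held 51 and 18 cells in the pachytene cluster, 53 and 37 in the diplotene and dividing cluster and 45 and 19 in the round spermatid cluster, against 292 to 2680 testis cells. The markers did not bear out every late label in the TOs. Each cell was also matched on its own to the mean profiles of the testis stages. Of the TO cells in the round spermatid cluster, 5 of the 45 and 7 of the 19 matched round spermatids. In the diplotene cluster 17 of the 53 and 19 of the 37 matched that stage. In the pachytene cluster 36 of the 51 and 11 of the 18 matched pachytene, and 15 and 7 matched leptotene and zygotene spermatocytes. Its marker Ybx2 was at 491 and 777 CPM in the TOs against 2157 and 2145 CPM in the testes. Its marker Mybl1 was at 134 and 92.2 CPM against 81.7 and 125 CPM. Acrv1, an acrosome gene, was at 166 and 802 CPM in the round spermatid cluster of the TOs and at 1004 and 1051 CPM in that of the testes. The elongating cluster held 3 and 9 TO cells. None of the 6 markers, among them the protamine genes Prm1 and Prm2, had a UMI in them, so levels of this stage were read for the testes alone. These TO cells stayed in the sums over all germ cells and in the levels expected from the mix of stages below.

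Members were also read in Leydig cells, the steroid-producing cells between the tubules, which should hold none of these transcripts. Catsperz reached 128 and 105 CPM in testis Leydig cells and 4.76 and 4.37 CPM in TO Leydig cells. Catsper2 came to 32.3 and 19.4 CPM there in the testes, Catsper4 to 21.7 and 5.29 CPM and Catsperb to 5.57 and 1.47 CPM. Testis Sertoli cells, the supporting cells of the tubules, held more Catsperz still, at 211 and 309 CPM, against 5.30 and 5.02 CPM in TO Sertoli cells. Testis libraries thus carried more CatSper RNA in Leydig cells than TO libraries did, and values in early germ stages are set beside these levels below.

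Each member is a protein-coding gene, placed here on GRCm38, the genome that underlies mm10. Catsper1 (ENSMUSG00000038498) lies at chr19:5335741-5344280 and Catsperz (ENSMUSG00000050623) at chr19:6922371-6925380. Catsper2 (ENSMUSG00000033486) lies at chr2:121392631-121413792, where it overlaps Gm14001 on its own strand and Gm14000 and Pdia3 on the other. Catsper3 (ENSMUSG00000021499) lies at chr13:55784568-55808998, Catsper4 (ENSMUSG00000048003) at chr4:134211970-134227383 and Catsperd (ENSMUSG00000040828) at chr17:56628143-56664456. Catsperb (ENSMUSG00000047014) spans chr12:101404653-101626009 and overlaps Gm24542, and Catsperz overlaps the potassium channel gene Kcnk4 on the same strand. Catsperg1 (ENSMUSG00000049676), at chr7:29181321-29214035, and Catsperg2 (ENSMUSG00000049123), at chr7:29697219-29727032, are near copies of each other, and 41.0% of the 50-base windows of the Catsperg1 transcript also occur in Catsperg2. Of the last 500 bases, the part read by a 3′ assay, 32.8% of the Catsperg1 windows and 10.4% of the Catsperg2 windows were shared, so the split of reads between this pair is uncertain.

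The promoters of 4 members are printed because their genes came on at different stages of the testes by the measure used below, first Catsper2, then Catsperb, then Catsper4 and Catsper3. The stages of the first and the last pair drew together under other settings, which are named there. Each runs 5′ to 3′ from 250 bases before to 50 bases after the start of transcription in RefSeq (GRCm38.p6). RefSeq entries were found for 7 members, with 9 starts. Capitals mark a match, on either strand, to CAGTTG, a MYB site, or to TGACG, the core of a cyclic AMP response element.
Catsper2, chr2:121413743-121414042, minus strand: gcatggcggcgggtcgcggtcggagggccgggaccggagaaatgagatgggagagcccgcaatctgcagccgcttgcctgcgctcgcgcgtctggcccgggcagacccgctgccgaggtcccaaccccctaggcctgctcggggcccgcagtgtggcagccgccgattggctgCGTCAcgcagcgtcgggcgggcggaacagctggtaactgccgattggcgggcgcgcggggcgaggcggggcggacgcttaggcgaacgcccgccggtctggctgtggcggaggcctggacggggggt
Catsperb, chr12:101404423-101404722, plus strand: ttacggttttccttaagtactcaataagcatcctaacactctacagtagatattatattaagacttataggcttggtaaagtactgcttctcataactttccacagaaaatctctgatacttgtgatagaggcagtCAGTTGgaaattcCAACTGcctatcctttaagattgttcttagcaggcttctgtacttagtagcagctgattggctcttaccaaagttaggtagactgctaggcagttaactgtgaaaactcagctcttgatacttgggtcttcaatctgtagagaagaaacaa
Catsper4, chr4:134227334-134227633, minus strand: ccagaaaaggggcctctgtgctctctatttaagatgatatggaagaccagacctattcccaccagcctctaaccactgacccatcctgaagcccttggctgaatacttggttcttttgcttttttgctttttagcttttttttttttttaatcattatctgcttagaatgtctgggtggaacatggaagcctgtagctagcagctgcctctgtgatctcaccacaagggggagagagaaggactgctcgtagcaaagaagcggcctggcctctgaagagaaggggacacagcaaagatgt
Catsper3, chr13:55784329-55784628, plus strand: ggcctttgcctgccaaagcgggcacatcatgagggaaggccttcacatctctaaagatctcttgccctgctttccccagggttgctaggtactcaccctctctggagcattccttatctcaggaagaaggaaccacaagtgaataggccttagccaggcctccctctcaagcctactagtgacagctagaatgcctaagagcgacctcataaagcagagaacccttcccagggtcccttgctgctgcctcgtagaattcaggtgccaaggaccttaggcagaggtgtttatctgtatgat
Catsperb held 2 MYB sites, 114 and 101 bases before its start, and 13.7% of all 32851 promoters held at least 1. Catsper2 held 1 TGACG, 77 bases before its start, and Catsperd held 3 before the first of its 2 starts, against 20.8% of all promoters with at least 1. None of these letters was in the windows of Catsper3, Catsper4, Catsperg1 or Catsperz, and neither the full element TGACGTCA nor GTTGCC, the core of an RFX site, was in any member window, against 1.79% and 12.5% of all promoters. The Catsper2 window held 41 CG pairs, a number that 3.46% of all promoters reach, whereas Catsper3, Catsper4 and Catsperb held 3, 2 and 1 CG pairs against a median of 7. MYB, CREM and RFX proteins are known regulators of meiotic and haploid genes, and a match is a description of letters only.

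The first comparison followed the members through the germ stages of the testes and asked when pore and auxiliary subunits come on. Auxiliary subunits and Catsper2 were higher in pachytene than in leptotene and zygotene spermatocytes, whereas Catsper1, Catsper3 and Catsper4 rose 1 step later and again in round spermatids. A member was said to come on at the first stage at which its level reached 25% of its highest stage in both testis libraries. Each library was set against its own highest stage. By that measure Catsper2 came on in leptotene and zygotene spermatocytes, all 5 auxiliary members in pachytene spermatocytes, Catsper1 and Catsper4 in diplotene and dividing spermatocytes and Catsper3 in round spermatids. Once the Leydig level was taken off, that is the UMIs per Leydig cell of the same library subtracted for each cell, Catsper2 came on in pachytene with the auxiliary members and Catsper1 in round spermatids. With barcodes above the upper limits on genes and UMIs included, Catsper1 and Catsper4 came on in round spermatids with Catsper3. When cells were thinned to equal depth and those with a UMI counted, Catsper2 came on in differentiating and Catsperz in undifferentiated spermatogonia. The highest stage was pachytene for Catsperb, Catsperd, Catsperg1 and Catsperg2, diplotene for Catsper2 and Catsperz, and the round spermatid for Catsper1, Catsper3 and Catsper4.

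**Figure D1:**
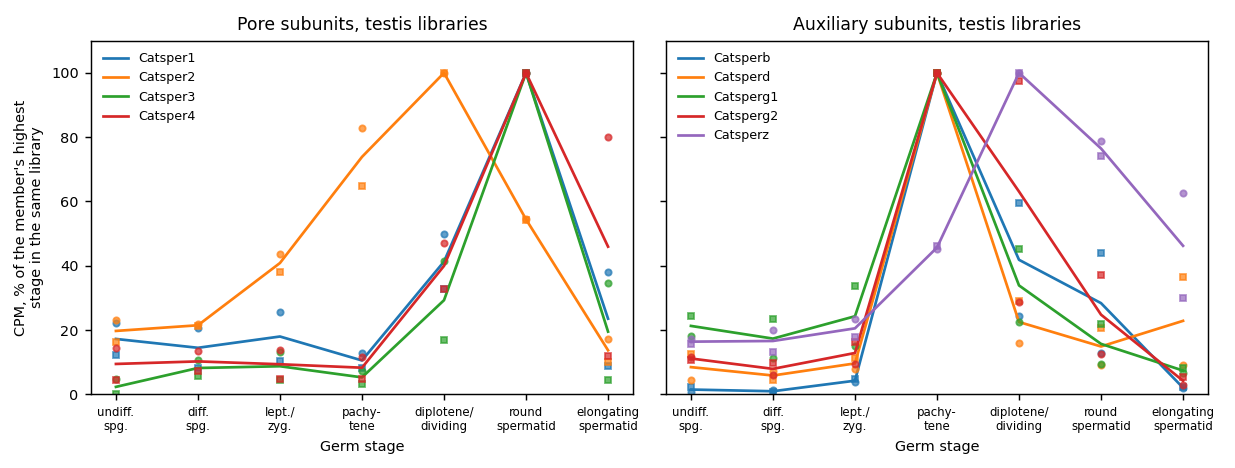
Level of each member by germ stage in the testes, as % of its highest stage in the same library, for pore subunits on the left and auxiliary subunits on the right. Circles are testis 1, squares testis 2, and lines join the means of both; Catsper1, Catsper3 and Catsper4 peak in round spermatids, and Catsperb, Catsperd, Catsperg1 and Catsperg2 in pachytene.

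Catsperb, which encodes a subunit on the outer face of the channel, had the largest fold change among members at the step into pachytene. It stood at 14.5 and 14.6 CPM in leptotene and zygotene spermatocytes and at 388 and 307 CPM in pachytene spermatocytes, and the stages did not overlap. The log2 fold change between these stages was 4.85 (SE 0.44, adjusted p = 4.65e-07, edgeR). Catsperd, another outer subunit, stood at 29.0 and 19.4 CPM before and at 370 and 170 CPM in pachytene (log2 fold change 3.67, SE 0.57, adjusted p = 8.08e-05). Catsperg2 rose by 3.30 (SE 0.45) and Catsperg1 by 2.39 (SE 0.36) on the log2 scale. Catsperz, whose product binds the channel from inside together with Efcab9, rose from 216 and 206 CPM to 417 and 539 CPM (log2 fold change 1.38, SE 0.31, adjusted p = 0.00203). In all, 6 of 9 members were called higher, where 9.9% of the 15901 genes tested were.

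Catsper2, a pore subunit gene, went with the auxiliary members at this step and not with the rest of the pore. Its level was 75.7 and 90.0 CPM in leptotene and zygotene and 144 and 153 CPM in pachytene spermatocytes, a log2 fold change of 1.05 (SE 0.28, adjusted p = 0.0073), which was not called when the Leydig level was taken off (log2 fold change 1.82, adjusted p = 0.0774). Catsper1 was at 8.39 and 6.55 CPM in pachytene spermatocytes and at 8.08 and 4.41 CPM in Leydig cells of the same libraries. Catsper3 was at 19.6 and 8.52 CPM against 18.1 and 4.12 CPM in Leydig cells, and Catsper4 at 29.6 and 10.5 CPM against 21.7 and 5.29 CPM. In pachytene these pore transcripts thus lay close to the level found in cells that should lack them. At the steps before pachytene, edgeR called no member, although Catsper2 and Catsperb stood at log2 fold changes of 0.97 (adjusted p = 0.0321) and 1.83 (adjusted p = 0.033) between differentiating spermatogonia and leptotene and zygotene spermatocytes. DESeq2 called Catsper2 there. At an unadjusted p under 0.05, edgeR listed Catsper3 at the first of these steps and Catsper2 and Catsperb at the second.

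Between pachytene and diplotene the families crossed. Catsper4 went from the values above to 120 and 69.8 CPM (log2 fold change 2.51, SE 0.37, adjusted p = 5.47e-05), Catsper3 to 110 and 46.1 CPM (2.62, SE 0.44, adjusted p = 0.00015) and Catsper1 to 32.8 and 25.8 CPM (2.13, SE 0.39, adjusted p = 0.000313). Catsperz was called higher as well, at 924 and 1167 CPM. Catsperd fell to 58.9 and 49.5 CPM (log2 fold change -2.13, SE 0.51), Catsperg1 to 36.6 and 44.1 CPM (-1.55, SE 0.33) and Catsperb to 94.1 and 182 CPM (-1.30, SE 0.36). Thus 4 members were called higher and 3 lower, against 14.8% and 13.8% of all genes. This step was sensitive to how cells were grouped. With putative doublets kept, edgeR called none of the 7, although all 7 had an unadjusted p under 0.05 and kept their direction (Catsper4 1.74, adjusted p = 0.0106, and Catsperd -2.48, adjusted p = 0.0104). Without Harmony only Catsperd was called (-1.93, adjusted p = 0.0078).

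In round spermatids the pore members rose again. Catsper3 reached 264 and 272 CPM (log2 fold change over diplotene 2.21, SE 0.38, adjusted p = 0.000301), Catsper4 255 and 213 CPM (1.61, SE 0.33, adjusted p = 0.00108) and Catsper1 65.8 and 78.8 CPM (1.55, SE 0.32, adjusted p = 0.00111). No auxiliary member was called, and 17.6% of all genes were higher. With the Leydig level taken off, Catsper1 missed the threshold (2.02, adjusted p = 0.0201). Elongating spermatids were lower than round spermatids for Catsperb (-2.52), Catsper3 (-2.13), Catsper1 (-1.5) and Catsper2 (-1.03), or 4 members against 11.6% of genes. In that stage the libraries differed most, with Catsper4 at 204 and 25.1 CPM and Catsper3 at 91.6 and 11.8 CPM, and testis 1 held 210 elongating cells against 2541 in testis 2. Each call was fitted with the library as a block. Without it, 6 members were called higher and 2 lower over all steps in place of 13 and 7, and the rise of pore members in round spermatids was not called (Catsper3 1.96, adjusted p = 0.0468).

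The likeness of profiles over the 14 sums of stage and library of the testes followed the same division in part, as a description in which points share libraries and depth. Catsper1 correlated with Catsper4 at r = 0.916 and with Catsper3 at 0.831, but with Catsperd at -0.0842 and with Catsperg1 at -0.272. Catsper2 was nearer to Catsperb (r = 0.878). The auxiliary Catsperz did not follow the division. It correlated with Catsper1, Catsper3 and Catsper4 at 0.652, 0.665 and 0.687. With Catsperb, Catsperd, Catsperg1 and Catsperg2 it correlated at 0.757, 0.501, 0.138 and 0.519. Among 12787 genes, the nearest to Catsper4 was Spaca3 (r = 0.988), a gene of the sperm acrosome, to Catsperz it was Insl6 (r = 0.988), and to Catsper3 it was Tgif2lx2 (r = 0.981). Catsper1 was nearest to Tsc22d4 (r = 0.979), Catsper2 to Snx15 (r = 0.976) and Catsperd to Lrrc71 (r = 0.917). Catsperb was nearest to Abcc12 (r = 0.986) and then to Adam2 (r = 0.974), which is 1 of the 6 markers that named the pachytene cluster. Catsperg1 was nearest to Ttc30a1 (r = 0.959) and Catsperg2 to Shcbp1l (r = 0.976), with Dnah8 (r = 0.973) and Cfap74 (r = 0.972), genes of the axoneme, behind it.

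The second comparison set TOs against testes over all germ cells. Every member was lower in the TOs, and the pore members other than Catsper2 were furthest down. Catsper1 had 3 and 4 UMIs in the TO libraries, 0.446 and 0.666 CPM, against 42.7 and 25.3 CPM in the testes (log2 fold change -6.71, SE 0.45, adjusted p = 0.000209). Catsper4 stood at 1.34 and 3.00 CPM against 165 and 70.5 CPM (-6.51, SE 0.59, adjusted p = 0.000289), and Catsper3 at 3.42 and 1.5 CPM against 157 and 71.0 CPM (-6.31, SE 0.50, adjusted p = 0.000222). In each of these genes every TO library lay far below either testis library.

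Catsperz, the most counted member, was at 17.8 and 32.3 CPM in the TOs and at 705 and 649 CPM in the testes (log2 fold change -5.55, SE 0.54, adjusted p = 0.000372). Catsperd was at 17.2 and 5.99 CPM against 59.6 and 54.4 CPM (-3.16, SE 0.45, adjusted p = 0.00128). Catsperb was at 30.5 and 5.49 CPM against 69.5 and 77.9 CPM (-2.95, SE 0.67, adjusted p = 0.0078), and the TO libraries were further apart from each other than the testis libraries. Catsperg2 was at 8.47 and 4.5 CPM against 26.4 and 22.5 CPM (-2.76, SE 0.35, adjusted p = 0.000892).

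Catsper2 was at 34.6 and 32.6 CPM against 109 and 99.7 CPM (-2.46, SE 0.28, adjusted p = 0.000573), the smallest difference among pore members. Catsperg1 was closest of all, at 22.4 and 12.3 CPM against 29.6 and 23.1 CPM (-1.44, SE 0.32, adjusted p = 0.00679). Summed over the named stages its TO levels were 82.3% and 45.9% of the testis mean, so that the fitted difference is larger than the ratio of the CPM. edgeR's TMM factors rescale the libraries and move the other members the same way, and Catsperg1 was not fitted without them. Catsperg1 was not called with the Leydig level taken off (-1.02, adjusted p = 0.0271). All 9 members were called lower where 32% of 20360 genes were, and the median member stood at -3.16 against -0.33 for all genes. Without TO 1, Catsperg1 was no longer called (-1.74, adjusted p = 0.0176), and without TO 2 neither Catsperg1 (-1.13, adjusted p = 0.0473) nor Catsperb (-2.20, adjusted p = 0.0135) was.

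Germ cells of the TOs and of the testes differed in their mix of stages. Had each TO germ cell carried the mean testis level of its stage, Catsper3 would have stood at 18.8% and 21.0% of the testis germ level, Catsperz at 33.6% and 36.5%, and Catsperg1 at 103% and 105%. The measured TO levels were 3.6% and 5.24% of the level so expected for Catsper1, 4.80% and 10.5% for Catsper4, 15.7% and 6.17% for Catsper3 and 8.28% and 13.8% for Catsperz. They were 57.9% and 46.4% for Catsper2, 61.7% and 20.9% for Catsperd, 65.1% and 33.4% for Catsperg2 and 79.5% and 43.5% for Catsperg1. Catsperb came to 146% and 24.0%, above the expected level in TO 1 and below it in TO 2. The median over members was 57.9% in TO 1 and 20.9% in TO 2, and 77.1% and 31.0% once the Leydig level was taken off. The low percentages moved with that setting, to 12.1% and 18.9% for Catsper1, 13.9% and 31.0% for Catsper4, 32.7% and 12.6% for Catsper3 and 23.0% and 46.9% for Catsperz. With barcodes above the upper limits included, Catsperz came to 23.3% and 60.6% and Catsper1 to 2.54% and 10.3%.

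**Figure D2:**
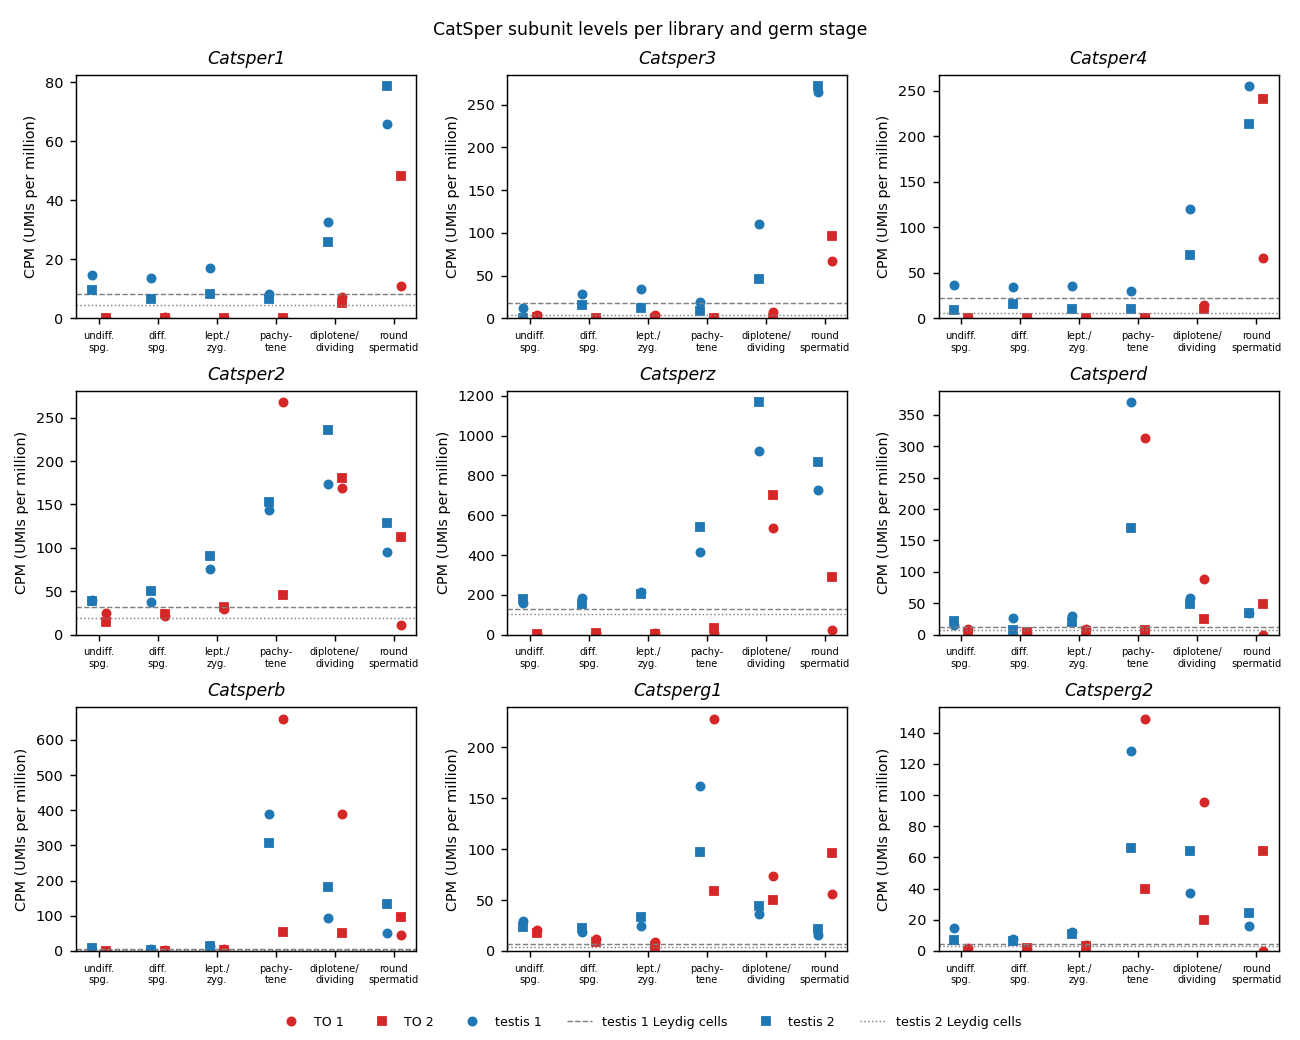
CPM of each member (y axes, linear and separate for each gene) in 6 germ stages, with TO libraries in red and testis libraries in blue, circles for replicate 1 and squares for replicate 2. Grey lines are the levels in testis Leydig cells; Catsperb of TO 1 in pachytene (660 CPM) lies above both testis libraries (388 and 307 CPM), whereas Catsper1, Catsper3 and Catsper4 of the TOs lie at 0 there.

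The third comparison was made within stages. In the 3 stages before pachytene 1, 5 and 6 members were called lower, with the shares of all genes given below. In pachytene neither a member nor any other gene was called. With the Leydig level taken off, the counts before pachytene were 1, 2 and 0. In simulated data 4-fold changes were recovered for 41.3% of changed genes in pachytene, against 94.6% to 96.8% in those 3 stages. In leptotene and zygotene spermatocytes of the testes Catsper2 (75.7 and 90.0 CPM), Catsperb (14.5 and 14.6 CPM) and Catsperg1 (24.2 and 32.9 CPM) lay above Leydig cells of the same libraries (32.3 and 19.4, 5.57 and 1.47, and 7.24 and 3.53 CPM). Catsperz was called lower in TOs in all 3 stages before pachytene. In undifferentiated spermatogonia it stood at 4.61 and 5.17 CPM against 159 and 181 CPM (log2 fold change -5.20, SE 0.32, adjusted p = 9.15e-10), with 128 and 105 CPM in testis Leydig cells and 211 and 309 CPM in testis Sertoli cells. It was the single member called of 4 tested there, against 8.89% of genes. With the Leydig level taken off, Catsperz was left with 18 and 15 UMIs in the testes and none in the TOs, and was still called lower there (adjusted p = 5.52e-06). The 22.0 and 35.8 CPM so left were fewer than the 68.8 and 119 CPM that the same subtraction left in testis Sertoli cells, so free RNA from other cells cannot be told apart from transcription in these stages.

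In differentiating spermatogonia 5 of 8 members tested were called lower, against 12.6% of genes. Catsper4 had no UMI in either TO library and 94 in the testes (34.0 and 15.2 CPM), at least 41.2-fold lower by the limit of 3 counts over the group. Catsper3 was at 0.781 and 0 CPM against 28.4 and 15.2 CPM (-5.49, adjusted p = 6.15e-05) and Catsper1 at 0.391 and 0 CPM against 13.6 and 6.53 CPM (-5.25, adjusted p = 0.000311). Catsperd (-2.45, adjusted p = 0.00708) and Catsperz (-4.43, adjusted p = 2.46e-08) were the others. Without testis 1, Catsperz alone was called, with Catsper3 at -4.88 (adjusted p = 0.0116), Catsperd at -1.13 (adjusted p = 0.517) and Catsper1 and Catsper4 not tested. With the Leydig level taken off, Catsper3 and Catsper4 were called (-6.70 and -6.65), Catsper2 and Catsperg1 were not, and the other members were too low to test. The testis levels left were 5.52 and 8.72 CPM for Catsper3 and 6.37 and 6.54 CPM for Catsper4, and in testis Sertoli cells the subtraction left 11.5 and 7.27 CPM and 8.30 and 5.81 CPM.

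In leptotene and zygotene spermatocytes, where TOs had 237 and 304 cells, 6 of 9 members were called lower, against 14.6% of genes. Catsper2 was at 29.5 and 31.4 CPM against 75.7 and 90.0 CPM (-1.46, SE 0.29, adjusted p = 0.00239) and Catsperg1 at 9.25 and 5.06 CPM against 24.2 and 32.9 CPM (-2.06, SE 0.47, adjusted p = 0.0061). Catsper1 had no UMI in TOs against 36 in the testes and was at least 17.4-fold lower. Catsper4 (-6.31), Catsper3 (-3.77) and Catsperz (-5.24) were also called, and Catsperb, Catsperd and Catsperg2 were not (-2.06, -1.74 and -1.66). Catsper2 was not called without TO 1 (-1.39, adjusted p = 0.0457) or without TO 2 (-1.63, adjusted p = 0.0203), Catsperg1 was not called without TO 2 (-1.76, adjusted p = 0.0624) or without testis 2 (-1.87, adjusted p = 0.01), and Catsper3 was not called without testis 1 (-2.80, adjusted p = 0.0192). With the Leydig level taken off, Catsper2, Catsperb, Catsperd and Catsperg1 were left to test in this stage. edgeR called none of these 4, each of which had an unadjusted p under 0.05 (Catsperg1 -1.82, adjusted p = 0.0313, and Catsper2 -0.94, adjusted p = 0.142).

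In pachytene spermatocytes TO 1 carried the auxiliary transcripts other than Catsperz within or above the range of the testes. Catsperb was at 660 CPM in TO 1 (133 UMIs in 51 cells), 52.7 CPM in TO 2 (8 UMIs in 18 cells) and 388 and 307 CPM in the testes. Catsperd was at 313 and 6.59 CPM against 370 and 170 CPM, and Catsperg1 at 228 and 59.3 CPM against 162 and 97.6 CPM. For each of these genes TO 1 lay within or above the testis range and TO 2 below it.

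Catsper2 showed the same split, at 268 and 46.1 CPM against 144 and 153 CPM, and Catsperg2 stood at 149 and 39.5 CPM against 128 and 66.2 CPM. The log2 fold changes were -0.14 (SE 0.61) for Catsper2, -0.22 (SE 0.81) for Catsperb, -0.98 (SE 0.91) for Catsperd, -0.07 (SE 0.56) for Catsperg1 and -0.25 (SE 0.57) for Catsperg2, with adjusted p from 0.514 to 0.95. These errors leave room for differences in either direction. Pooled over libraries, Catsper2, Catsperb, Catsperg1 and Catsperg2 had a higher CPM in the TOs, as for Catsperb at 399 against 351 CPM. Their fitted signs thus differ from those of the pooled CPM, and the fits use TMM factors. Catsperz was apart from these genes in both libraries, at 9.93 and 32.9 CPM (2 and 5 UMIs) against 417 and 539 CPM (-4.78, SE 0.67, adjusted p = 0.0103). In this cluster 15 of 51 TO 1 cells and 7 of 18 TO 2 cells matched leptotene and zygotene spermatocytes. Cell identities and levels thus cannot be told apart here. edgeR called 0% of the 8910 genes tested in this stage, although 2633 had an unadjusted p under 0.05, and DESeq2 called 72 genes higher and 232 lower, with Catsperz the single member (-4.89, adjusted p = 4.09e-07).

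Leaving out a library changed the pachytene results. Without TO 2, Catsperb stood at 0.52 and Catsper2 at 0.44, and neither was called, whereas Catsperz was (-5.98, adjusted p = 4.4e-09). Without TO 1, Catsperb (-2.90, adjusted p = 6.11e-05), Catsperd (-5.51, adjusted p = 9.78e-06) and Catsperz (-4.04, adjusted p = 2.24e-06) were called lower. With 1 library in a group, that library is assumed to vary as the pair of the other group does, and the p-values of these fits rest on the spread of that pair alone. Catsperz was called without testis 1 (-4.95) and without testis 2 (-4.57) as well. Catsper1, Catsper3 and Catsper4 had no UMI in the 51 and 18 TO cells and were too low to test, and against 48 and 69 testis UMIs Catsper3 was at least 1.71-fold and Catsper4 at least 2.45-fold lower, while the depth gave no limit for Catsper1. With the Leydig level taken off, testis pachytene cells kept 1 and 1 UMIs of Catsper3 and 12 and 1 UMIs of Catsper4. These folds thus cannot be told apart from a difference in free RNA.

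In diplotene and dividing spermatocytes Catsper3 and Catsper4 were called lower, 2 of 9 members against 3.79% of genes. Catsper3 had 1 UMI in the TOs and 1301 in the testes, 7.37 and 0 CPM against 110 and 46.1 CPM (log2 fold change -5.11, SE 1.00, adjusted p = 0.000364), and the ratio of the pooled levels was 0.0366 (95% counting interval 0.000925 to 0.204). Catsper4 stood at 14.7 and 10.0 CPM against 120 and 69.8 CPM (-3.40, SE 0.70, adjusted p = 0.000616). Catsper1, with 2 TO UMIs, was at -2.69 (adjusted p = 0.0445).

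Catsperz stood at 538 and 703 CPM against 924 and 1167 CPM (-1.13, SE 0.42, adjusted p = 0.0557), and Catsper2 at 169 and 181 CPM against 174 and 236 CPM (-0.61, SE 0.43). Catsperb was at 390 and 50.2 CPM against 94.1 and 182 CPM (0.22, SE 0.52), with TO 1 above both testis libraries and TO 2 below. Catsperd, at 88.4 and 25.1 CPM against 58.9 and 49.5 CPM, and Catsperg2, at 95.8 and 20.1 CPM against 36.9 and 64.4 CPM, showed the same split. Catsperg1 stood at 73.7 and 50.2 CPM, above both testis libraries (36.6 and 44.1 CPM; log2 fold change 0.20, SE 0.53). Without testis 1, Catsper4 was not called (-2.66, adjusted p = 0.15) and Catsper3 was too low to test. When cells were regrouped by their match to testis stages, neither Catsper3 (-1.48, adjusted p = 0.245) nor Catsper4 (-0.76, adjusted p = 0.499) was called.

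In the round spermatid cluster TO 2 carried all 9 members and TO 1 carried 7, from 68 and 25 CatSper UMIs in all. Catsper4 was at 66.6 and 241 CPM against 255 and 213 CPM (-1.55, SE 0.77, adjusted p = 0.119), so that TO 2 lay within the testis range. Catsper3 was at 66.6 and 96.3 CPM against 264 and 272 CPM (-2.64, SE 0.83, adjusted p = 0.0103) and Catsper1 at 11.1 and 48.1 CPM against 65.8 and 78.8 CPM (-2.32, SE 0.88, adjusted p = 0.0372). Catsperg1 went the other way, at 55.5 and 96.3 CPM (5 and 6 UMIs) against 15.5 and 21.3 CPM (1.11, SE 0.80, adjusted p = 0.288), and Catsperg2 was at 0 and 64.2 CPM against 15.9 and 24.6 CPM (-0.43, SE 1.01). Pooled over libraries, Catsperg2 was at 26.2 CPM in the TOs and 18.9 CPM in the testes, so the fitted sign differs from that of the CPM. The fits of each stage, that of Catsperz included, use TMM factors, and no edgeR fit was made without them. Catsperz was called lower, at 22.2 and 289 CPM against 728 and 865 CPM (-3.29, SE 0.95, adjusted p = 0.00513), the single call against 6.65% of genes. It was not called without testis 1 (-3.13, adjusted p = 0.247) or without testis 2 (-2.93, adjusted p = 0.223). Without TO 2, Catsper1, Catsper2, Catsper3, Catsper4, Catsperd and Catsperz were called lower (Catsper4 -3.10, adjusted p = 0.000199). Since 5 of 45 TO 1 cells and 7 of 19 TO 2 cells in this cluster matched round spermatids, the cell identities and the levels cannot be told apart here.

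**Figure D3:**
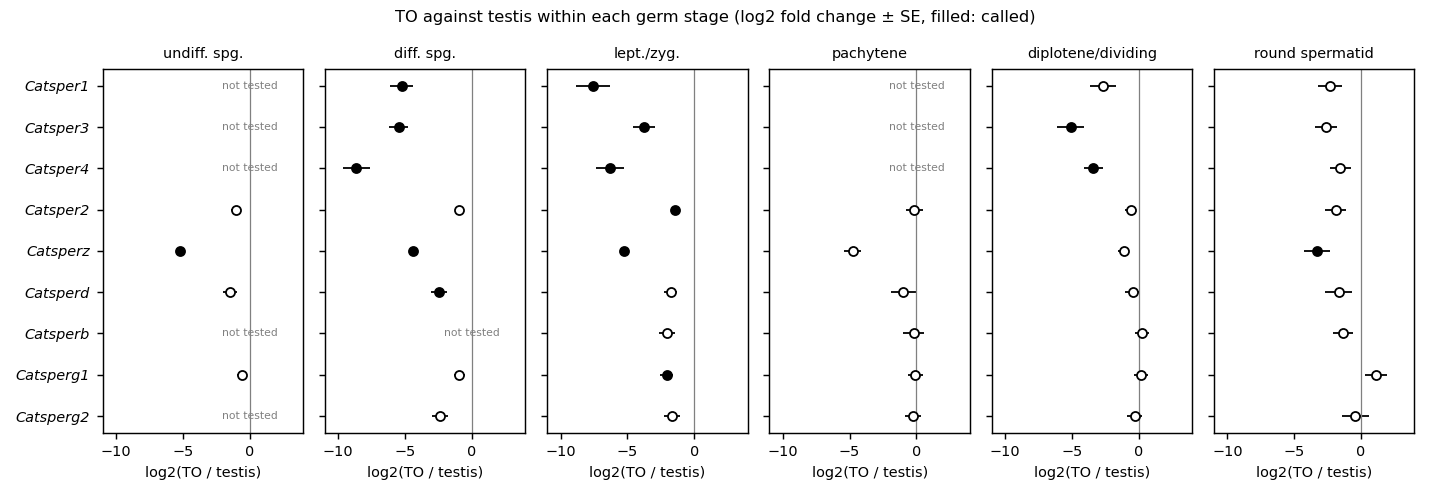
Log2 fold change of TO over testis (x axis) for each member (rows) in 6 germ stages, with bars of 1 SE from edgeR and filled points for calls at adjusted p under 0.01 and over 1 in size. Catsperz is filled in the 3 stages before pachytene and in round spermatids, and Catsper3 and Catsper4 are filled in diplotene; 3 pore members were not tested in pachytene.

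Catsperz was the member whose course through the stages differed between the groups by a test of the difference itself. Between pachytene and diplotene it rose more steeply in the TOs, by 3.17 on the log2 scale (SE 0.67, adjusted p = 0.00466, interaction term in edgeR), from 9.93 and 32.9 CPM to 538 and 703 CPM against 417 and 539 CPM to 924 and 1167 CPM in the testes. From diplotene to round spermatids the change in the TOs minus that in the testes was -2.45 (SE 0.55, adjusted p = 0.00374). The TO pachytene and round spermatid levels behind these terms rest on 2 and 5 and on 2 and 18 UMIs. Part of the TO cells in these clusters matched other stages, as given above. In no other member was a step called different, and the errors of Catsper1, Catsper3 and Catsper4, with 0 UMIs in TO pachytene, were too wide to compare. When barcodes above the upper limits were included, the difference lay 1 step earlier, between leptotene and zygotene and pachytene (3.56, SE 0.74, adjusted p = 0.00846), and was not called at the later steps (0.89, adjusted p = 0.588, and -0.40, adjusted p = 0.816). The testis level before that earlier step, 202 CPM pooled, was no higher than in testis Sertoli cells as given above. Free RNA cannot be told apart from transcription in it, and no interaction was fitted with the Leydig level taken off.

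Shares of cells with a UMI were compared after each cell was thinned to 1500 UMIs. Cells with fewer UMIs were left out. In the diplotene cluster 37 of 53 TO 1 cells entered. In the round spermatid cluster 35 of 45 TO 1 cells and 14 of 19 TO 2 cells did. All testis cells of these clusters entered. Unlike kept cells as a whole, TO cells of the round spermatid cluster held fewer UMIs per cell than testis cells. Catsperb was then found in 50.0% of 50 TO 1 pachytene cells (exact 95% interval 35.5% to 64.5%), 6.25% of 16 TO 2 cells and 50.7% and 28.8% of testis cells. Before thinning these shares were 54.9%, 33.3%, 72.3% and 48.3%. In Leydig cells Catsperb was found in 0.118% and 0.192% of TO cells and in 1.06% and 0% of testis cells, which is far below the pachytene shares of TO 1 and both testes.

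Catsperz was found in 4.00% and 0% of TO pachytene cells and 50.0% and 55.1% of testis cells after thinning (3.92%, 22.2%, 78.0% and 83.2% before), with 16.8% and 15.5% in testis Leydig cells. In diplotene cells the shares were 46.0% and 58.3% against 67.7% and 77.5%. Catsper3 was found in 8.57% and 21.4% of TO cells of the round spermatid cluster and in 33.3% and 34.1% of testis round spermatids (11.1%, 21.1%, 59.8% and 59.0% before), and Catsper4 in 8.57% and 28.6% against 35.0% and 27.1%. The intervals of the TO 2 shares, from 14 cells, reach from 4.66% to 50.8% for Catsper3 and from 8.39% to 58.1% for Catsper4, and both hold the testis values. A UMI of all 4 pore members in the same cell was rare even in testis round spermatids, in 9.74% and 8.57% of cells before thinning.

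The share of CatSper UMIs that came from pore members was 29.2% and 38.4% in TO germ cells and 34.8% and 24.4% in testis germ cells, and the groups overlapped (difference of the means 4.25 percentage points, exact two-sided permutation test, p = 0.667, where 0.333 is the smallest p that 2 against 2 libraries can give). The direction rested on Catsperz, on single libraries and on the upper limits on genes and UMIs. With barcodes above those limits included, the pore share was 20.8% and 18.9% in the TO libraries against 33.3% and 21.4% in the testis libraries, and the groups no longer overlapped (exact permutation p = 0.333). Without Catsperz the pore share was 33.6% and 57.2% in the TO libraries against 71.9% and 60.0% in the testis libraries. Within pachytene it was 16.5% and 19.4% against 12.1% and 13.2%, in diplotene 14.4% and 18.8% against 27.5% and 20.05%, and in round spermatids 56.0% and 45.6% against 44.6% and 39.0%. Without TO 2 the difference over all germ cells was -0.345 and without testis 2 it was -0.952 percentage points. UMIs of different genes are captured with different efficiency, so the share is compared between libraries and not read as a ratio of proteins.

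Cells with over 5000 genes or over 20000 UMIs were removed, following the study, and these limits took out a large part of the CatSper RNA of the TOs. Barcodes above the limits held 49.4% and 73.7% of all CatSper UMIs of TO 1 and TO 2 (2377 and 5735 UMIs), compared with 38.9% and 42.9% in the testes, although they held 19.8% and 27.7% against 31.9% and 29.5% of all UMIs. Over all barcodes, somatic ones included, CatSper members made up 148 and 208 CPM above the limits and 37.4 and 28.5 CPM within them in the TOs. In TO barcodes named germ cells without the limits, 2121 and 5265 CatSper UMIs lay above and 934 and 594 within them. In the testes 32222 and 33283 lay above and 46217 and 41426 within. For Catsperb 61.5% and 91.9% of TO UMIs lay above the limits (43.7% and 53.9% in testes), and for Catsperz 55.5% and 84.1% (38.4% and 42.4%). For Catsper3 the shares were 12.3% and 31.8% against 36.3% and 24.4%. Of the cells named pachytene without the limits, 26 of TO 1 and 36 of TO 2 lay above and 56 and 27 within them, against 174 and 232 above and 295 and 296 within in the testes, so that TO 2 had a larger and TO 1 a smaller part above the limits than either testis.

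**Figure D4:**
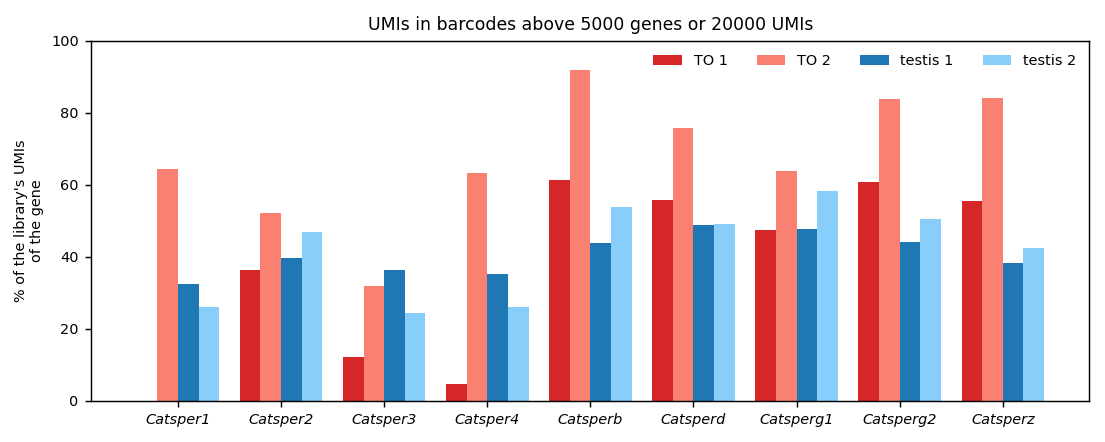
Share of each member's UMIs, in % of its UMIs in the library, that lay in barcodes with over 5000 genes or over 20000 UMIs, with bars from 0 for TO 1, TO 2, testis 1 and testis 2. TO 2 has the highest bar for every member except Catsper3, and its Catsperb bar reaches 91.9%.

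With those barcodes included and clustering repeated, the pachytene cluster held 82 and 63 TO cells, and the libraries of the TOs came closer to each other. Catsperb stood at 340 and 218 CPM against 330 and 316 CPM (log2 fold change -0.42), Catsperd at 218 and 134 CPM against 326 and 177 CPM (-0.72) and Catsper2 at 165 and 113 CPM against 184 and 191 CPM (-0.65). Catsperz reached 238 and 310 CPM against 585 and 872 CPM (-1.61, adjusted p = 0.0147). Catsper1 and Catsper4 still had no UMI in TO pachytene cells and Catsper3 had 1, and Catsper4 was at least 10.3-fold lower. In testis pachytene cells Catsper4 was at 9.16 CPM pooled, within the range of testis Leydig cells given above. Catsper1, at 3.72 CPM, lay below that of its own Leydig levels. Free RNA thus cannot be told apart from transcription here. None of the 9 members was called by edgeR in pachytene, where 2.13% of genes were called lower and 4889 genes had an unadjusted p under 0.05. Catsper4 (-8.72, adjusted p = 0.0202) and Catsper1 (-7.37, adjusted p = 0.0312) were nearest to a call.

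The diplotene cluster so obtained was smaller than the main one, which held 53 and 37 TO cells. It held 17 and 10 TO cells within the limits and 10 and 7 above them. In it TO cells had no UMI of Catsper1, Catsper3 or Catsper4, and edgeR called Catsper4 lower (at least 17.1-fold, adjusted p = 0.00332), 1 member against 3.73% of genes. Catsper3 was at least 12.9-fold lower (adjusted p = 0.0136) and Catsper1 at least 5.58-fold lower (adjusted p = 0.0192). Catsperb, at 231 and 179 CPM, and Catsperd, at 204 and 148 CPM, lay above both testis libraries there (100.1 and 161 CPM, and 69.4 and 67.0 CPM). In round spermatids Catsperz stood at 284 and 1328 CPM against 797 and 1059 CPM (log2 fold change -0.50, SE 1.30, adjusted p = 0.848), so that TO 2 lay above both testis libraries and the call made within the limits was lost. edgeR called none of 15909 genes in that stage, although 4647 had an unadjusted p under 0.05. Over all germ cells 6 members were called lower in place of 9, against 20.8% of genes, with a median of -1.59 for members and -0.18 for all genes. Catsper3 (-5.80), Catsper4 (-5.63) and Catsper1 (-5.56) stayed furthest down, Catsperd was at -1.59, Catsperb at -1.52 and Catsperg2 at -1.45, and the members not called were Catsperz (-2.90, adjusted p = 0.0147), Catsper2 (-1.58, adjusted p = 0.0106) and Catsperg1 (-0.88, adjusted p = 0.0235).

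The complex has other members, and 7 of their genes were read from a list of the rest of the complex. Over all germ cells 5 of the 7 were called lower in TOs, and within stages 3 of 5 tested in undifferentiated spermatogonia, 4 of 5 in differentiating spermatogonia, 4 of 7 in leptotene and zygotene, 3 of 7 in diplotene and 1 of 7 in round spermatids, against the background shares given above. edgeR called none of 6 in pachytene. The counts in the 3 stages before pachytene became 0 of 1, 0 of 2 and 1 of 3 with the Leydig level taken off. Efcab9, the calcium-binding partner of Catsperz, was at 2.82 and 5.49 CPM against 217 and 120 CPM (-6.10, adjusted p = 0.000247), and in diplotene at 36.8 and 50.2 CPM against 186 and 132 CPM (-2.25, adjusted p = 0.00219). Tmem249 and Tmem262, small membrane proteins of the complex, were at -7.19 and -8.27 over all germ cells. Slco6c1, a transporter that sits beside the channel, and C2cd6, which is needed for its arrangement in the tail, were at -4.80 and -3.19.

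Catspere1 and Catspere2, which encode outer subunits like Catsperb and Catsperd, were not called lower. Catspere2 was at 61.4 and 74.8 CPM in TO germ cells and 51.2 and 49.3 CPM in testis germ cells (-0.38, adjusted p = 0.281), and the fitted sign differs from that of the CPM because edgeR's TMM factors rescale the libraries. In TO pachytene cells Catspere1 was at 347 and 26.3 CPM against 194 and 167 CPM and Catspere2 at 471 and 72.4 CPM against 225 and 214 CPM, the split between TO 1 and TO 2 that Catsperb and Catsperd showed. In the testes Catspere2 was called higher in leptotene and zygotene spermatocytes than in differentiating spermatogonia (2.05, SE 0.33, adjusted p = 0.000559), a step at which edgeR called no member.

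Of 11 further genes of sperm ion transport and signalling, 9 were called lower in TO germ cells, with a median of -3.78, against 32% and -0.33 for all genes. Atp1a4, the sodium pump of the sperm tail, and Lrrc52, a partner of the sperm potassium channel, both stood at -7.32, and Plcz1, which starts calcium waves in the egg, at -5.65. Hvcn1, a proton channel (1.74, adjusted p = 0.0298), and Atp2b4, a calcium pump (-1.42, adjusted p = 0.0258), were not called. Within stages 1 of 4 tested was called in undifferentiated spermatogonia, 6 of 9 in differentiating spermatogonia, 5 of 8 in leptotene and zygotene, 1 of 10 in diplotene and 2 of 10 in round spermatids, where 8.89%, 12.6%, 14.6%, 3.79% and 6.65% of all genes were. edgeR called none of 7 in pachytene. For the same 3 stages before pachytene, taking off the Leydig level left 0 of 1, 0 of 2 and 0 of 2 called.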

How the data were processed

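Testicular cells of TOs and testes were sequenced on the 10x Chromium platform (3′ kit, v3.1). The authors deposited raw UMI counts per gene and cell barcode, and the submitters' processing notes name Cell Ranger 7.1.0 and mm10. The gene annotation and the setting for intronic reads are not given in the sources used here, and a filtered matrix may hold free RNA. The members and gene lists were chosen with earlier results of these data known.

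The limits of the study were applied, so that cells under 1000 or over 5000 genes, over 20000 UMIs or over 10% mitochondrial RNA left the analysis. Scrublet scores were computed and the top 0.8% of barcodes per 1000 barcodes (9.46% to 11.7% per library) were removed as doublets. Counts were scaled to 10000 per cell and logged, 2000 variable genes without the 9 members entered a principal component analysis, and Harmony (theta 2) and Leiden clustering (resolution 1) followed with scanpy 1.11.5 in Python 3.11.15. Clusters were named from marker lists of 5 or 6 genes. Germ clusters that resembled the whole library (r of at least 0.92) and were shallow were left unnamed, a rule chosen after seeing the data. The unnamed clusters held 7 and 8 germ cells of the TOs and 1559 and 1079 of the testes.

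UMIs were summed per library and stage and tested with edgeR 4.0.16 (quasi-likelihood, TMM, filterByExpr) in R 4.3.3, on stages with at least 10 cells in each library. A call needed a Benjamini-Hochberg adjusted p under 0.01, over all genes tested, and a log2 fold change over 1 in size. Stage steps of the testes came from 1 fit with the library as a block, and the difference between groups in a step from an interaction term. The tests were also run on simulated data, in which genes were changed by a known fold. A 4-fold change was recovered for 46.7% of changed genes over all germ cells, 13.7% in diplotene and 1.59% in round spermatids. An 8-fold change was recovered for 54.5% in diplotene and 17.6% in round spermatids. Members not called in these stages are thus not shown to be alike. Genes named were all members, the 7 other genes of the complex, the sperm ion genes not called and the furthest ones of the 11, and of the 3 genes most like each member (Pearson's r of log2(CPM + 1), genes reaching 20 CPM) the first and those of known role. Folds against 0 UMIs use a limit of 3 counts, and intervals cover counting error only. DESeq2 1.42.0, other filters and groupings, and each library left out in turn were tried as alternatives. Positions came from GENCODE and promoters from RefSeq, both on GRCm38. No deposited column was left unassigned.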

Additional observations from a re-analysis of the deposited data

Results flagged for a closer look

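CatSper UMIs were found in data outside the main comparison, in the barcodes above the upper limits on genes and UMIs. TO 1 held 2377 of them in 762 such barcodes and TO 2 held 5735 in 1124. Over germ and somatic barcodes together, this is 148 and 208 CPM against 37.4 and 28.5 CPM in all cells that were kept. Of the UMIs above the limits 2121 and 5265 lay in barcodes named germ cells, and of those in kept cells 934 and 594 did. Testis 1 and testis 2 held 32295 and 33351 CatSper UMIs in 785 and 585 such barcodes. Whether these barcodes are large single cells or several cells in a droplet was not tested.

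The step of Catsperz from pachytene to diplotene was larger in TOs than in testes by 3.17 on the log2 scale. Its step from diplotene to round spermatids differed by -2.45, the CPM falling further in the TOs. Both came from an interaction term (adjusted p = 0.00466 and 0.00374, edgeR). TO 1 and TO 2 both stood below either testis library for Catsperz in pachytene, in diplotene and in round spermatids. With the barcodes above the limits included, neither difference was called, and in round spermatids TO 2 then stood above both testis libraries for Catsperz (284 and 1328 CPM in the TOs against 797 and 1059 CPM).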

How the results depend on the processing

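Alternatives were computed for the counts of members called and for each value. Over all germ cells 9 members were called lower, 7 to 9 when 1 library was left out, 6 without the upper limits and 4 with cells of at least 3000 UMIs and no upper limits. Within stages 15 calls became 9 with at least 3000 UMIs, 6 with the Leydig level taken off and 8 to 20 when 1 library was left out. Over the steps of the testes 13 higher and 7 lower calls became 6 and 2 without the library block, higher calls came to 8 without Harmony, the alignment of libraries before clustering, and lower calls to 3 with doublets kept. The interaction test called 1 member lower and 1 higher, and 0 lower and 1 higher, at an earlier step, without the upper limits. At 10% and 50% of the highest stage in place of 25%, 3 and 5 of 9 members came on at the stage given. The pore share of CatSper UMIs in germ cells, TO minus testis, was 4.25 percentage points and became -7.49 without the upper limits, -20.5 without Catsperz, -26.7 with both changes, and -7.22 in diplotene alone, and ran from -0.952 to 9.45 with 1 library left out. Among values of called members and counts per stage or step, 791 held, 111 member values missed the threshold, 67 counts moved by over 1.5 times and 0 changed sign. Called members that were too low to test in an alternative are in none of these numbers. Counts of 0 in both settings are among those that held. Steps read in 1 testis library had no test and held by direction alone. The number that held thus overstates how many calls were kept. Members that were not called could change sign, as Catsperb and Catsper2 did in pachytene without TO 2 (0.52 and 0.44). With 1 library in a group, p-values rest on the spread of the other group. The cause was not tested.

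Replicate numbers did not pair the libraries (r = 0.0487 of deviations over 20360 genes, 2 pairs), and a fit with the replicate number as a block gave 18 within-stage calls in place of 15 and 9 over all germ cells. The median log2 fold change of all genes over germ cells was -0.33 with edgeR and -0.52 with DESeq2. The median percent of the CPM expected from testis stage levels, averaged over both TO libraries, was 39.4%, and 64.5% without the upper limits and 54.0% with the Leydig level taken off. Settings that take off the Leydig level, ask for at least 3000 UMIs, name the unnamed clusters or leave out Catsperz were chosen after seeing the data, as was lifting the upper limits for the onset, the pore share, the expected CPM and the interaction. With cells regrouped by match, the round spermatids of the TOs could not be fitted. TO levels in pachytene, diplotene and round spermatid clusters rest on 18 to 53 cells per library, and counts of 0 there limit a fold only as far as stated.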
